A study of Mus musculus with 18 samples.

Results

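The peripheral opioid system was measured as the mRNA of 7 genes in the lumbar dorsal root ganglia (DRG) of mice with tibial fracture. The genes were the receptors *Oprm1* (mu), *Oprd1* (delta), *Oprk1* (kappa) and *Oprl1* (nociceptin), and the peptide precursors *Penk* (proenkephalin), *Pdyn* (prodynorphin) and *Pnoc* (prepronociceptin). They were chosen by name, and each of the 7 occurred once among the 36737 genes of the count table. Ganglia L3–L5 of adult CD1 mice were profiled by bulk RNA-seq. CD1 is an outbred strain, and the labels name no engineered allele. One group had sham surgery (Sham), a second had tibial fracture with vehicle (Fracture), and the last had tibial fracture with protectin DX, a proresolving lipid mediator (Fracture+PDX). Each group held 6 mice (3 males, M1 to M3, and 3 females, F1 to F3) with 1 library per mouse, and the fracture ganglia were collected on day 3. The day for sham mice and the PDX dose and schedule for these mice are not given in the sources used here.

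The opioid receptors are G protein–coupled receptors that act through Gi/o proteins. In sensory neurons they inhibit adenylyl cyclase and voltage-gated calcium channels, open inwardly rectifying potassium channels and thereby reduce transmitter release from nociceptors. Enkephalins from *Penk* act mainly on delta and mu receptors, dynorphins from *Pdyn* on the kappa receptor, and nociceptin from *Pnoc* on the nociceptin receptor, which binds classical opioids poorly. The precursors are cut by prohormone convertases and carboxypeptidase E, and the released peptides are degraded by peptidases such as neprilysin.

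The libraries held 63235040 to 82824942 reads counted on genes. All 6 neuron markers fixed for the tissue check were detected in every library. The summed level of these neuron markers was 7154 to 7684 CPM (reads scaled to a common library size) in Sham, 7998 to 8121 in Fracture and 7776 to 8426 in Fracture+PDX, so both fracture groups lay above all sham mice. Macrophage markers moved the other way in Fracture, with sums of 68.5 to 77.4 CPM in Sham, 48.6 to 63.8 in Fracture and 51.5 to 69.2 in Fracture+PDX. All 6 placenta markers were also detected in every library, at summed levels of 156 to 507 CPM in Sham, 27.3 to 238 in Fracture and 25.4 to 124 in Fracture+PDX. The part of these marker differences in the comparisons with Sham was not tested. In bulk ganglia, fewer cells of a type and less RNA per cell cannot be told apart.

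The receptor genes lie at separate loci of the mouse genome (mm10). *Oprm1* (ENSMUSG00000000766) spans chr10:6758506-7038198 on the plus strand, *Oprd1* (ENSMUSG00000050511) chr4:132110726-132144486 on the minus strand, *Oprk1* (ENSMUSG00000025905) chr1:5588466-5606131 on the plus strand and *Oprl1* (ENSMUSG00000027584) chr2:181715016-181720985 on the plus strand. The precursor genes all lie on the minus strand. *Penk* (ENSMUSG00000045573) spans chr4:4133531-4138819, *Pdyn* (ENSMUSG00000027400) chr2:129686565-129699833 and *Pnoc* (ENSMUSG00000045731) chr14:65400673-65425472. In the GENCODE annotation *Oprm1* overlaps *Ipcef1* on the opposite strand, which had 50 to 171 reads per library, and also *Gm10945*, while *Penk* overlaps *A830012C17Rik*, which had 0 to 11. The strand setting of the counting is not given in the sources used here, so reads in the overlaps could have gone to either gene.

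RefSeq promoter sequences (GRCm38.p6, 250 bases before and 50 after the start) were matched for 4 of the 7 genes, *Oprm1*, *Oprd1*, *Oprl1* and *Pdyn*. Those of the 3 receptors are shown, each for the start nearest to the start of the gene in the count table, with CG dinucleotides in capitals. *Oprd1* on the minus strand (chr4:132144437-132144736) held 43 CG dinucleotides, a number that 2.61% of 32851 promoters reached. *Oprl1* on the plus strand (chr2:181714766-181715065) held 5 and *Oprm1* on the plus strand (chr10:6758343-6758642) held 3, numbers that 62% and 76.7% of promoters reached. The nearest *Pdyn* window held 11, against a median of 7 over all promoters. *Oprm1* and *Oprl1* each had 3 windows and *Pdyn* had 2. The other *Oprm1* windows, chr10:6788320-6788619 and chr10:6788326-6788625, lay downstream and held 4 and 5 CG dinucleotides. The other *Oprl1* windows held 2 each, and the other *Pdyn* window held 5.
Oprd1: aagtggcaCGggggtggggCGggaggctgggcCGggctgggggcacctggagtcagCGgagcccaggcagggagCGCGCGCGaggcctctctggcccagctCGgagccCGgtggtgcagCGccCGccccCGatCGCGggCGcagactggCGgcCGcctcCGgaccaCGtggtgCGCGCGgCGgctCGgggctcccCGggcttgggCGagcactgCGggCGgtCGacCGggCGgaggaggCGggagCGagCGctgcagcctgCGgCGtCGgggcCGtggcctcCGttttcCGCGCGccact
Oprl1: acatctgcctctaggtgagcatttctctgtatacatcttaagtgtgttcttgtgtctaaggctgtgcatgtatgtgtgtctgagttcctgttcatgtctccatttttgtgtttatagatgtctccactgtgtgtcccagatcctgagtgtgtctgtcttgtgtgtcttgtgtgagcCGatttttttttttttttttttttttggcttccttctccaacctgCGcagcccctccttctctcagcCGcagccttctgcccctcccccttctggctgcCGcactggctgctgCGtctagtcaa
Oprm1: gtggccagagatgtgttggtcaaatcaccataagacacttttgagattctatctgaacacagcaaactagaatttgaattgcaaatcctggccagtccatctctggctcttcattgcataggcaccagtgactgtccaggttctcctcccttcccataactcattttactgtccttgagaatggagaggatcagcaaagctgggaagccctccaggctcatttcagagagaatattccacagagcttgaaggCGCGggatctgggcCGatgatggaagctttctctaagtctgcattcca
None of the 4 windows nearest to the starts in the count table contained the letters TATAAA on the strand shown, which 8.32% of all promoters did.

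Levels between genes were compared as the deposited FPKM values, which are scaled for library depth and for a length per gene. The ratio of CPM to FPKM put that length at 8.99 kilobases for *Oprm1* and 10.2 for *Oprk1*, somewhat above the summed exons of all annotated transcripts (8037 and 9151 bases) and well above the longest single transcript (2420 and 4675 bases). Levels were therefore also computed as CPM per kilobase of the longest transcript, an alternative chosen after seeing the data. *Oprl1* was the most abundant of the receptors at 6.49 ± 1.16 FPKM (SD, n = 18), followed by *Oprd1* at 2.45 ± 0.43, *Oprk1* at 0.291 ± 0.091 and *Oprm1* at 0.219 ± 0.056. Of the FPKM summed over the 4 receptors, *Oprl1* took 68.5% ± 4.11 (SD, n = 18) and *Oprd1* 26.0% ± 3.75, whereas the receptor for morphine, *Oprm1*, took 2.36% ± 0.67. On the scale of the longest transcript *Oprm1* took 6.42% ± 1.74 and *Oprk1* 4.94% ± 1.57 (SD, n = 18), so which receptor came last, and the share of *Oprm1* by more than 1.5 times, depended on the length used. The shares of *Oprl1*, 67.5% ± 4.15, and *Oprd1*, 21.2% ± 3.20, stayed first and second. Among the precursors *Penk* reached 6.05 ± 2.14 FPKM, *Pnoc* 0.353 ± 0.133 and *Pdyn* 0.0956 ± 0.0663. *Penk* thus took 92.7% ± 3.01 of the FPKM summed over the 3 precursors. *Oprl1* exceeded 82.6% of the 36357 genes with FPKM above 0 and *Penk* 81.7%, while *Oprm1* exceeded 50.9% and *Pdyn* 43.4%.

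Some neighbors in this order were not separated. *Oprl1* was above *Penk* in 13 of 18 libraries, and their ranges of 5.18 to 9.4 and 3.64 to 11.39 FPKM overlapped. *Penk* lay above *Oprd1*, and *Oprd1* above *Pnoc*, in all 18. *Pnoc* was above *Oprk1* in 12, *Oprk1* above *Oprm1* in 14 and *Oprm1* above *Pdyn* in 16 libraries, so the 4 low genes formed an overlapping series. CPM divided by the summed exon length from GENCODE ran from 7.19 CPM per kilobase for *Oprl1* to 0.107 for *Pdyn*. The order was the same, but FPKM already followed this length, so it was no separate check. With the longest transcript *Oprl1*, *Penk* and *Oprd1* stayed at the top in that order and *Pdyn* last, whereas *Oprm1* moved up to rank 4 at 0.813 ± 0.207 CPM per kilobase, ahead of *Oprk1* at 0.633 ± 0.198 and *Pnoc* at 0.395 ± 0.147 (SD, n = 18). *Oprm1* was above *Oprk1* on that scale in 13 of 18 libraries, and *Oprk1* above *Pnoc* in 14. The reads behind these levels ranged from 1416 to 2904 per library for *Oprl1* and from 77 to 211 for *Oprm1*. *Pdyn* had 4 to 56 reads, so its values carried the largest counting error of the 7.

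**Figure D1:**
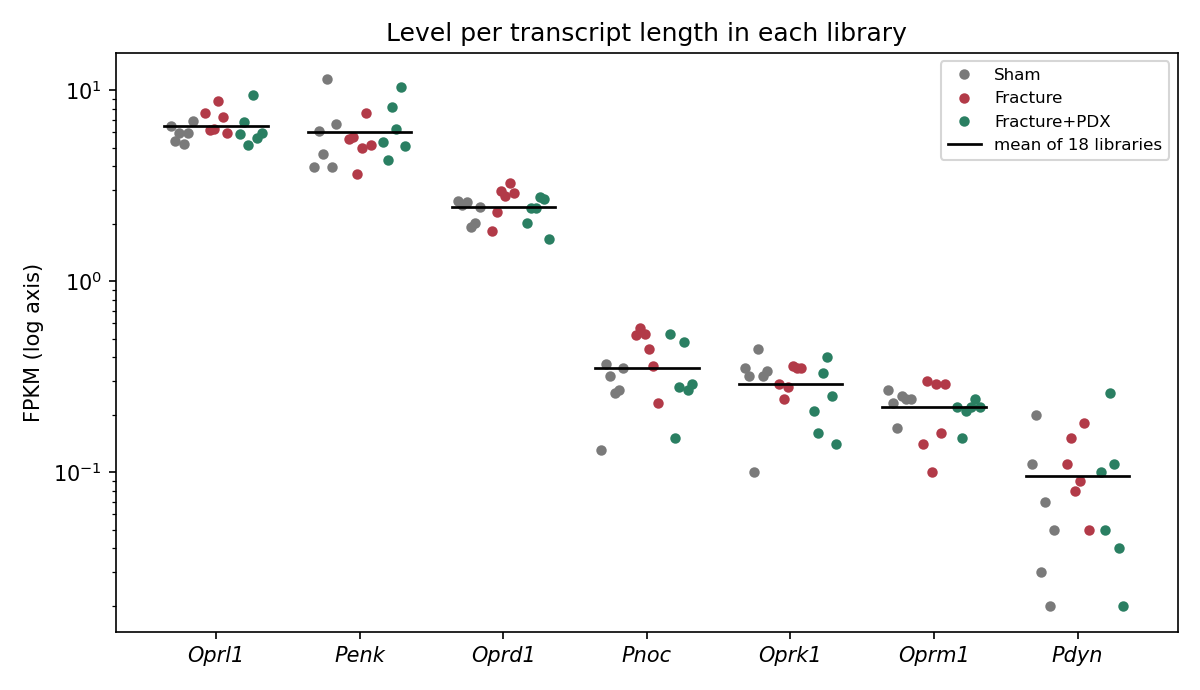
Level of each gene in each of the 18 libraries (FPKM, log axis), colored by group, with the mean of all libraries as a line. Oprl1 and Penk overlap near 6 FPKM, Oprd1 lies between 1.67 and 3.26, and the other 4 genes stay below 0.6.

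No opioid receptor or precursor gene was called between Fracture and Sham by edgeR's quasi-likelihood test at a Benjamini-Hochberg adjusted p under 0.05 over all genes tested. This count of 0 of 7 stands beside 603 of 20659 genes called (2.92%), a number that ranged from 213 without Fracture F2 to 710 without Sham M1. Unadjusted p-values were under 0.05 for 2 of the 7 genes and for 18.5% of all genes. The median log2 fold change of the 7 genes was 0.20, the value of *Oprd1*, whose interval included 0. The median over all genes tested, 0.0021, is held near 0 by the scaling between libraries and is no yardstick for it. DESeq2 called 0 of the 7 as well.

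*Oprl1*, the nociceptin receptor, had the lowest unadjusted p-value. Its CPM in Sham ran from 21.6 through a median of 25.0 to 28.9, and in Fracture from 25.0 through 27.9 to 36.7. The upper fracture mice exceeded all sham mice, but the groups overlapped between 25.0 and 28.9 CPM. The log2 fold change was 0.23 with a 95% interval of 0.020 to 0.44 (unadjusted p = 0.0341, adjusted p = 0.226, edgeR).

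*Pnoc*, which encodes the ligand of this receptor, showed a similar size of unadjusted p-value at a far lower level. It ran from 0.305 through a median of 0.720 to 0.869 CPM in Sham and from 0.553 through 1.16 to 1.38 CPM in Fracture. Of the fracture mice, 4 lay above every sham mouse, and the 2 lowest were males within the sham range. The log2 fold change was 0.60 with an interval of 0.014 to 1.19 (unadjusted p = 0.0456, adjusted p = 0.259, edgeR).

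*Oprd1*, the delta receptor, ran from 8.53 through 10.9 to 11.6 CPM in Sham and from 8.05 through 12.7 to 14.4 CPM in Fracture. The log2 fold change was 0.20 with an interval of −0.089 to 0.48 (adjusted p = 0.476, edgeR). *Oprk1*, the kappa receptor, had means of 3.15 ± 1.17 CPM in Sham and 3.18 ± 0.50 in Fracture (SD, n = 6). Its log2 fold change of 0.03 had an interval of −0.47 to 0.53 (adjusted p = 0.966, edgeR).

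*Oprm1*, the mu receptor, ran from 1.57 through 2.16 to 2.32 CPM in Sham and from 0.930 through 2.04 to 2.69 CPM in Fracture. The fracture mice spread both above and below the sham mice, with 3 libraries at 2.64 to 2.69 CPM and 3 at 0.930 to 1.43. The coefficient of variation was 13.2% in Sham, 42.5% in Fracture and 15.1% in Fracture+PDX. The log2 fold change of −0.12 had an interval of −0.66 to 0.41 (adjusted p = 0.853, edgeR), which covers falls and rises of moderate size.

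*Penk* ran from 6.97 through 9.60 to 20.6 CPM in Sham and from 6.57 through 9.70 to 13.6 CPM in Fracture. The highest value of all libraries, 20.6 CPM, was that of Sham M1, and without this library the log2 fold change turned from −0.14 to 0.09 (adjusted p = 0.832 and 0.853, edgeR). Sham M1 also had the highest sum of the 8 spinal cord and brain markers, 20.1 CPM, where the groups ranged from 5.87 to 20.1 in Sham, 5.42 to 13.6 in Fracture and 6.03 to 9.01 in Fracture+PDX. Most of it was *Gfap*, a glial gene (18.8 CPM against 4.16 to 11.98 in the other 17 libraries). *Gad1* was at 1.15 CPM (80 reads), near the top of the 0.311 to 1.18 CPM of the others, *Gad2*, *Lbx1* and *Mog* had 4, 4 and 8 reads, and *Slc6a5*, *Slc32a1* and *Olig2* had 0. Among the other 17 libraries *Slc6a5* reached 3.11 CPM and *Gad2* 1.06. Fracture M2 had the highest marker sum of Fracture, 13.6 CPM, and also the highest *Penk* of that group, 13.6 CPM. In Fracture+PDX the highest *Penk*, 19.2 CPM in M2, went with a marker sum of 7.13 CPM. The part of these markers in the *Penk* values was not tested. *Pdyn* had means of 0.245 ± 0.203 CPM in Sham and 0.361 ± 0.161 in Fracture (SD, n = 6). Its log2 fold change of 0.65 had the widest interval of the 7, −0.43 to 1.74 (adjusted p = 0.547, edgeR).

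**Figure D2:**
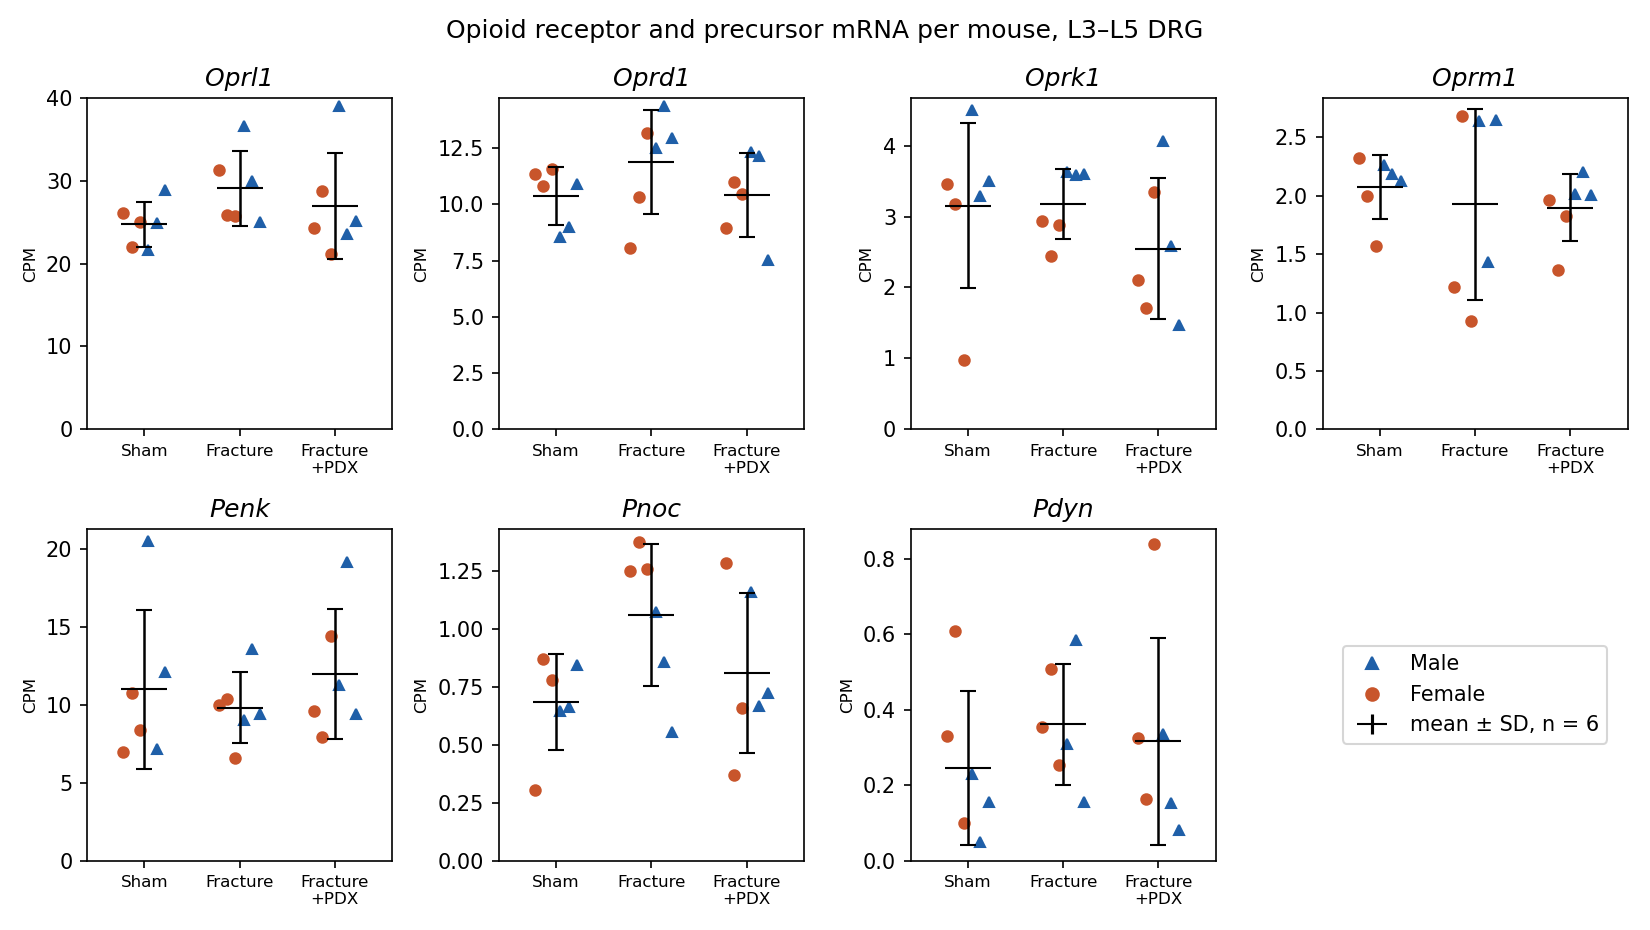
CPM of each gene in each mouse by group (triangles males, circles females, bars mean ± SD, n = 6, linear axes from 0). The groups overlap for every gene, Penk is highest in Sham M1 (20.6 CPM), and Oprm1 spreads most widely in Fracture.

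The effect of PDX on these genes was examined against Fracture with vehicle. No gene passed the adjusted threshold in edgeR, neither among the 7 nor among the 20562 tested (0%). Unadjusted p-values were under 0.05 for 0 of the 7 and for 1113 genes (5.41%), and DESeq2 called 15 genes. Of the 7, DESeq2 called 0 and gave no adjusted p for *Oprm1*, *Pdyn* and *Pnoc*. The median log2 fold change of the 7 genes was −0.18, the value of *Oprd1*, whose interval included 0. The median over all genes tested, −4.5e-05, is likewise held near 0 by the scaling.

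*Oprk1* ran from 1.48 through 2.35 to 4.07 CPM in Fracture+PDX, so it reached both below and above the 2.45 to 3.62 CPM of Fracture. Its log2 fold change was −0.31 with an interval of −0.78 to 0.16. *Pnoc* fell between 0.369 and 1.28 CPM in Fracture+PDX, with a log2 fold change of −0.36 (interval −1.002 to 0.29). *Oprd1* (7.54 to 12.3 CPM, log2 fold change −0.18, interval −0.48 to 0.11) and *Oprl1* (21.2 to 39.1 CPM, −0.11, interval −0.42 to 0.20) differed less. The highest *Oprl1* value of all libraries, 39.1 CPM, was that of Fracture+PDX M1.

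*Oprm1* lay between 1.37 and 2.20 CPM in Fracture+PDX, and its log2 fold change of −0.01 had an interval of −0.54 to 0.51 and turned positive in some alternatives, up to 0.23 without Fracture F2. *Penk* was at 7.97 to 19.2 CPM, with a log2 fold change of 0.28 (interval −0.19 to 0.75). *Pdyn* ranged from 0.0802 to 0.839 CPM with a log2 fold change of −0.28 (interval −1.34 to 0.77), which was 0.025 without Fracture M2. That library had the highest *Pdyn* of Fracture, 0.586 CPM from 41 reads. It also had the highest sum of spinal cord and brain markers in that group, 13.6 CPM, whose part was not tested. The adjusted p-values of the 7 genes lay between 0.935 and 0.998 (edgeR).

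Fracture+PDX was also set against Sham, in a comparison that shares libraries with the others. None of the 7 genes was called, while 925 of 20574 genes were (4.5%), from 498 without Fracture+PDX F1 to 1008 without Sham M1. The log2 fold changes were −0.13 for *Oprm1*, 0.01 for *Oprd1*, −0.28 for *Oprk1*, 0.12 for *Oprl1*, 0.15 for *Penk*, 0.38 for *Pdyn* and 0.25 for *Pnoc*. The narrowest intervals were those of *Oprd1*, −0.25 to 0.28, and *Oprl1*, −0.16 to 0.41, and all 7 intervals included 0 (adjusted p = 0.685 to 0.978, edgeR).

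**Figure D3:**
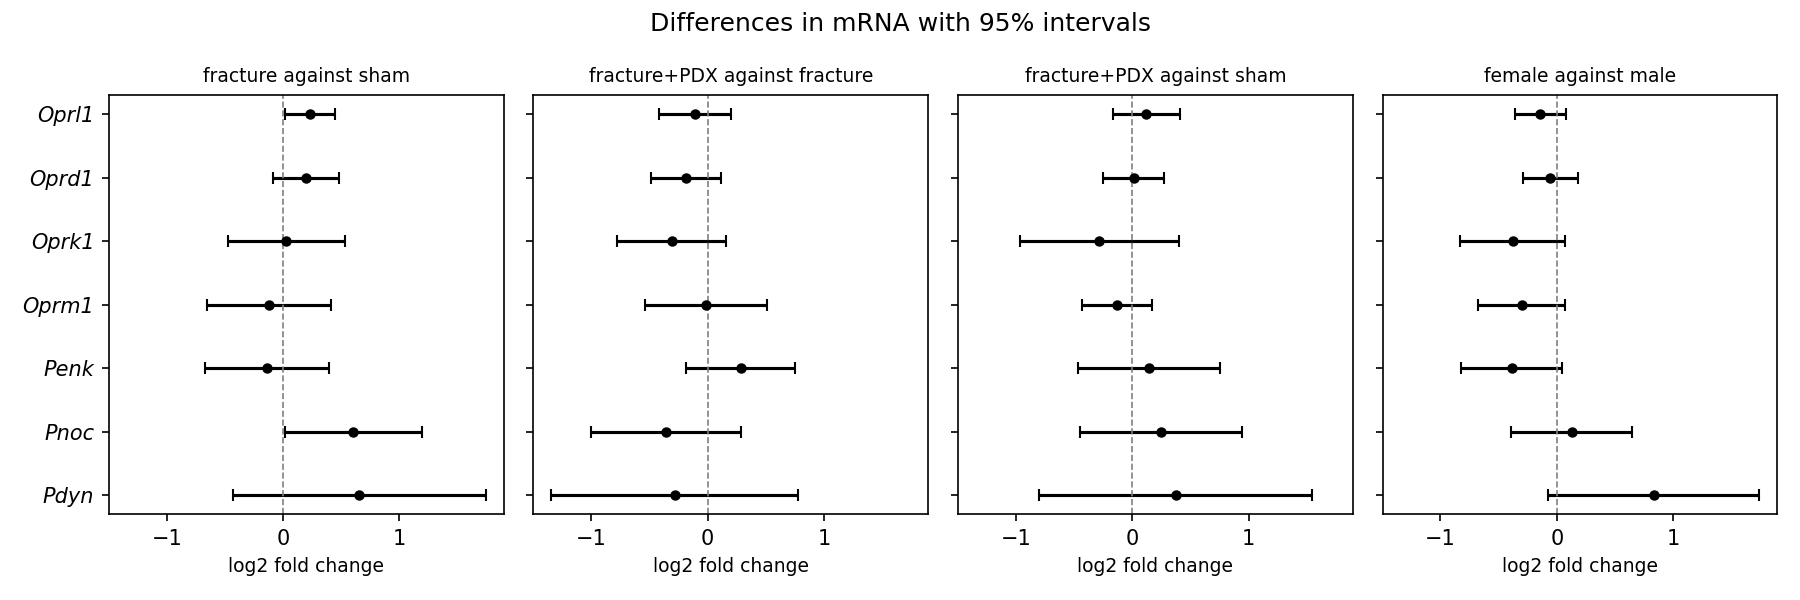
Log2 fold change of each gene (points) with its 95% interval (bars) in the comparisons of groups and of sexes, from edgeR with sex or group as a covariate. In Fracture against Sham the intervals of Oprl1 and Pnoc lie just above 0, and all other intervals cross it.

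Sex was compared over all 18 libraries with group as a covariate. None of the 7 genes was called between females and males, beside 61 of 20527 genes (0.297%, with 0.117% higher and 0.18% lower in females), and 0 of the 7 had an unadjusted p under 0.05, as 10.4% of all genes did. The 4 receptors and *Penk* had lower means in females. *Penk* was at 9.46 ± 2.39 CPM in females and 12.4 ± 4.63 in males (SD, n = 9), with a log2 fold change of −0.39 (interval −0.82 to 0.045). *Oprk1* was at 2.56 ± 0.83 and 3.36 ± 0.88 CPM (−0.38, interval −0.83 to 0.073), and *Oprm1* at 1.76 ± 0.55 and 2.17 ± 0.37 CPM (−0.30, interval −0.68 to 0.072). *Pdyn* differed the other way, at 0.387 ± 0.231 CPM in females and 0.228 ± 0.164 in males (0.83, interval −0.072 to 1.74). The adjusted p-values of the 7 genes were 0.531 to 0.917 (edgeR).

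Within each sex, fracture and sham mice did not overlap in 2 of the 14 combinations of gene and sex, beside 21.6% of all 20659 genes in males and 17.6% in females. The 2 were *Oprd1* in males and *Pnoc* in females. Male *Oprd1* values were 8.53, 8.997 and 10.9 CPM in Sham and 12.5, 13.0 and 14.4 in Fracture. Females had 10.8, 11.4 and 11.6 CPM in Sham and 8.05, 10.3 and 13.2 in Fracture, with fracture mice on both sides of the sham mice. The difference of the log2 fold changes, female minus male, was −0.59 (interval −1.06 to −0.12, unadjusted p = 0.0184, adjusted p = 0.620, edgeR interaction), so it failed the correction.

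For *Pnoc*, females had 0.305, 0.777 and 0.869 CPM in Sham and 1.25, 1.26 and 1.38 in Fracture, and males had 0.644 to 0.843 in Sham and 0.553 to 1.07 in Fracture. The difference of the log2 fold changes was 0.78 (interval −0.34 to 1.91, unadjusted p = 0.157, adjusted p = 0.799, edgeR interaction), so no difference between the sexes was detected. The interaction of sex and fracture called 0 of 20659 genes (0%) in edgeR, with 1488 (7.2%) under an unadjusted p of 0.05, and 65 genes in DESeq2. The interaction of sex and PDX called 0 of the 7 and 1 of 20562 genes (0.00486%), with 4.14% of genes under an unadjusted p of 0.05.

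Further genes of opioid signaling were taken from lists of opioid-binding proteins, precursor processing, enkephalin-degrading peptidases, Gi/o proteins, effectors, desensitization, trafficking and regulators of precursor genes. Of 60 such genes in the table, 59 were tested, all but the potassium channel gene *Kcnj5*. The lists were chosen with earlier results of these data known, so the shares below do not test enrichment. Between Fracture and Sham 2 rose and 2 fell (6.78%, beside 2.92% of all genes, 1.09% that rose and 1.83% that fell). Of the 59, 17 (28.8%) had an unadjusted p under 0.05, beside 18.5% of all genes. Between Fracture+PDX and Fracture 0 of 59 were called, with 2 under an unadjusted p of 0.05, beside 5.41% of all genes. Between Fracture+PDX and Sham 4 rose and 0 fell, beside 2.17% and 2.32% of all genes, and 23 of 59 (39%) had an unadjusted p under 0.05, beside 18% of all genes. Between the sexes 0 of 59 were called by edgeR, with 6 under an unadjusted p of 0.05, beside 10.4% of all genes.

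*Ackr3*, an atypical chemokine receptor that also binds and scavenges opioid peptides, fell after fracture. It ran from 12.4 to 18.9 CPM in Sham and from 8.78 to 10.5 CPM in Fracture, without overlap, as in 2.49% of all genes. The log2 fold change was −0.57 ± 0.085 (SE, adjusted p = 0.00733, edgeR), and the call remained without each of the 12 libraries in turn. In Fracture+PDX *Ackr3* lay between 7.59 and 15.3 CPM, with a log2 fold change of −0.50 against Sham that was not called (adjusted p = 0.0918, edgeR). That difference was called by DESeq2 (adjusted p = 0.0174), with all 18 libraries in 1 fit (0.0278, edgeR) and without Fracture+PDX F3 (log2 fold change −0.66, adjusted p = 0.0114, edgeR). The summed fibroblast markers were 1471 to 1945 CPM in Sham and 1385 to 1614 in Fracture, and their part in this difference was not tested.

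*Anpep*, which encodes the enkephalin-degrading aminopeptidase N, fell from 8.64 ± 1.22 CPM in Sham to 6.56 ± 1.12 in Fracture (SD, n = 6). The log2 fold change was −0.40 (adjusted p = 0.0382, edgeR), and the call held in 4 of the 12 fits that each left out 1 library, those without Sham M1, Sham F1, Sham F3 or Fracture M2. It was lost without the sex covariate (adjusted p = 0.106) and with all 18 libraries in 1 fit (adjusted p = 0.0912, edgeR). *Anpep* had a log2 fold change of −0.27 between Fracture+PDX and Sham (adjusted p = 0.326, edgeR), which of the 20 alternatives was called only without Fracture+PDX F3 (−0.41, adjusted p = 0.0462, edgeR). The other 5 peptidases were not called. *Mme*, which encodes neprilysin, had 72.3 ± 17.2 CPM in Sham and 58.9 ± 4.38 in Fracture (SD, n = 6, log2 fold change −0.29, adjusted p = 0.340, edgeR). In Fracture *Npepps*, *Dpp3* and *Ece2* had log2 fold changes of 0.036, 0.082 and 0.062.

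*Atf3*, a transcription factor induced in injured sensory neurons, had the largest change of the 59 genes. It rose from 11.2 to 14.5 CPM in Sham to 20.2 to 72.5 CPM in Fracture (log2 fold change 1.65 ± 0.25 SE, adjusted p = 0.0141, edgeR). In Fracture+PDX it was at 62.4 ± 27.5 CPM, which was 2.21 above Sham on the log2 scale (adjusted p = 0.00260, edgeR) and did not differ detectably from Fracture (log2 fold change 0.57, adjusted p = 0.930, edgeR). The other regulators were not called in Fracture. *Kcnip3*, whose product DREAM represses *Pdyn*, had a log2 fold change of 0.11, *Creb1* −0.094 and *Junb* −0.23. *Fos*, the fifth gene of this list, is named after its values were seen. It was at 6.91 ± 1.11 CPM in Sham, 4.83 ± 1.09 in Fracture and 4.74 ± 1.34 in Fracture+PDX (SD, n = 6), with log2 fold changes against Sham of −0.52 and −0.54 that missed the threshold (adjusted p = 0.0507 and 0.109, edgeR).

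*Arrb1* encodes beta-arrestin 1, which uncouples and internalizes phosphorylated opioid receptors. It rose by little, from 273 ± 10.1 CPM in Sham to 299 ± 14.4 in Fracture and 307 ± 9.20 in Fracture+PDX (SD, n = 6). The log2 fold changes against Sham were 0.13 (adjusted p = 0.0484) and 0.17 (adjusted p = 0.00993, edgeR). The first call held in 2 of 12 fits with 1 library left out, those without Sham F3 or Fracture F1, and the second in all 12. The first was also lost without a filter on low counts (adjusted p = 0.0548), without the sex covariate (0.0663, edgeR) and in both limma fits of log2 FPKM (0.0762), while the second held in each of these. The kinases *Grk2* and *Grk6* had log2 fold changes of 0.074 and 0.085 in Fracture, and *Rgs4*, a GTPase-activating protein of this pathway, one of 0.075, none of them called. Summed neuron markers, given above, also lay above all sham mice in both fracture groups. Their part in the *Arrb1* increases was not tested.

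Between Fracture+PDX and Sham, *Pcsk2*, a convertase that cuts opioid precursors, and *Cacna1a*, the pore of the P/Q-type calcium channel, also rose. *Pcsk2* went from 188 ± 14.3 to 217 ± 12.9 CPM (SD, n = 6, log2 fold change 0.21, adjusted p = 0.0407, edgeR) and *Cacna1a* from 91.4 ± 5.15 to 102 ± 3.25 CPM (0.17, adjusted p = 0.0318, edgeR). Each call held in 5 of 12 fits that left out 1 library, and each was lost in both limma fits of log2 FPKM (adjusted p = 0.0807 to 0.0827 for *Pcsk2* and 0.0734 to 0.0739 for *Cacna1a*). For *Pcsk2* these were the fits without Sham M1, M3 or F3 or Fracture+PDX F2 or F3, and for *Cacna1a* those without Sham M2 or F3 or Fracture+PDX M1, F2 or F3. Between Fracture and Sham *Pcsk2* had a log2 fold change of 0.18 and *Cacna1a* one of 0.11, neither of them called by edgeR (adjusted p = 0.0584 and 0.225). That of *Pcsk2* was called by DESeq2 (adjusted p = 0.0123) and with upper-quartile scaling (adjusted p = 0.0468, edgeR), and without Sham M3 (0.0453, edgeR). Between Fracture+PDX and Fracture they were 0.036 and 0.053 (adjusted p = 0.978 and 0.949, edgeR). The summed neuron markers, given above, were also higher than in all sham mice, and their part in these increases was not tested.

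The genes with the highest mean CPM of each list that have not been named yet were not called in any comparison. *Cpe*, carboxypeptidase E, averaged 780 CPM over the 18 libraries, *Ctsl* 526, *Pcsk1n* 336 and *Scg5* 316. The Gi/o genes *Gnb1*, *Gnao1*, *Gnai2* and *Gng2* had log2 fold changes of 0.064, 0.088, −0.073 and 0.056 between Fracture and Sham. The effectors *Cacna1b*, *Adcy1* and *Adcy5* had −0.075, −0.025 and 0.098, and the trafficking genes *Gprasp1*, *Wls*, *Gprasp2* and *Gpr139* 0.062, 0.013, −0.071 and 0.23. *Ogfrl1* and *Ogfr* had −0.034 and 0.033. *Pomc*, the precursor of beta-endorphin, averaged only 0.714 CPM.

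**Figure D4:**
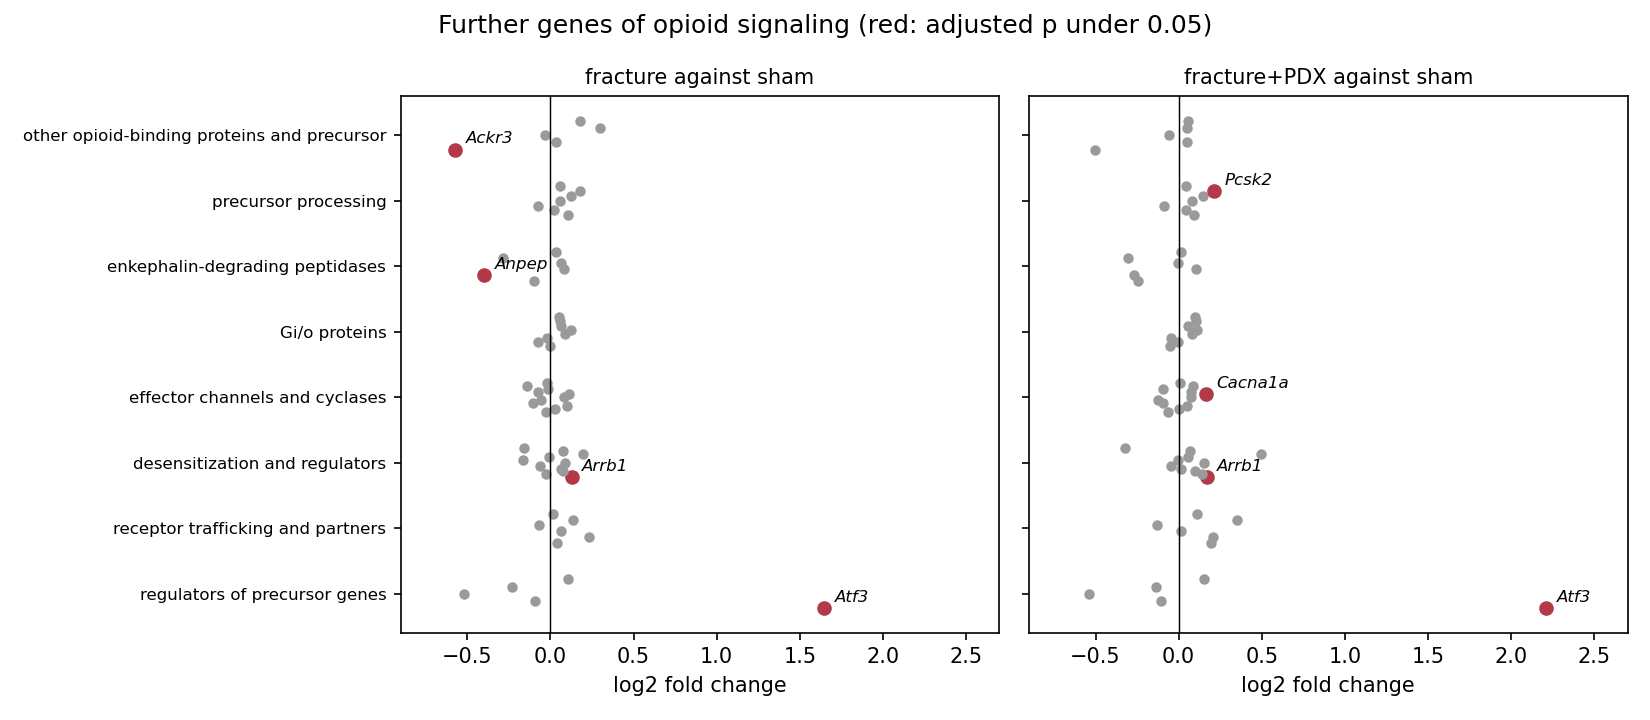
Log2 fold change of the 59 further genes, by list (rows), in Fracture and in Fracture+PDX against Sham; red points with names had an adjusted p under 0.05. Atf3 stands at 1.65 and 2.21, Ackr3 at −0.57 in Fracture, and most other genes lie close to 0.

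The genes whose log2 CPM was most like that of each member over the 18 libraries were listed as a description, among 15798 genes with a mean of at least 1 CPM. These coefficients share the libraries and their scaling across genes. *Oprl1* was most like *Serpina3g* (Pearson r = 0.91), *Asb13* (0.81) and *Prmt6* (0.75). *Serpina3g*, a serine protease inhibitor gene, ranged from 42.8 to 59.6 CPM and was highest in Fracture+PDX M1, as *Oprl1* was. *Oprm1* was most like *Nup205* (0.89), *Abi1* (0.85) and *Ttr* (0.84), and *Oprd1* most like *Gm28578* (0.82), *Plcd4* (0.80) and *Gm5141* (0.80). *Oprk1* was most like *Gm10684* (0.84), *Arl4a* (0.79) and *Scfd1* (0.78), and *Penk* most like *Zeb2* (0.76), *Gm43254* (0.76) and *Ndst1* (0.75). *Pdyn* and *Pnoc* had means under 1 CPM, and no similar genes are named for them.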

How the data were processed

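RNA-seq of L3–L5 DRG from 18 CD1 mice was analyzed, with groups and sexes taken from the sample labels. Table columns named for controls were assigned to Sham because the other columns carried the names of both fracture groups. Per the labels, libraries were poly(A)-selected and stranded. The submitters' processing notes name cutadapt 1.10, FastQC, HISAT2, StringTie and mm10, with no role or order, and the counting program is not given in the sources used here. The authors deposited raw read counts per gene, without normalization, and FPKM values scaled for a length per gene and mapped fragments. FPKM was used for levels between genes and CPM, from counts and TMM factors, for levels within a gene.

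Counts were tested in R 4.3.3 with edgeR 4.0.16 (filterByExpr with a minimum count of 10 and a minimum total of 15, TMM, robust quasi-likelihood fits). Sex and group were in the model, which held the 12 libraries of each comparison, or all 18 for sex. Benjamini-Hochberg adjustment covered every tested gene, and a gene was called under 0.05. Intervals are 95% intervals for the mean log2 fold change, computed from the variation between these mice, and do not cover the range of single mice. Their standard error was derived from the log2 fold change and the F statistic of the test. Mice of the same sex and number were not paired: their deviations from the group means correlated at −0.14 to 0.26, above 0.1 in 1, 3 and 1 of 6 pairs per comparison. Of the 45 pairs of libraries within groups, 0 were identical.

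Alternatives were DESeq2 1.42.0, upper-quartile scaling, no filter on low counts, no sex covariate, a replicate block, all libraries in 1 fit, limma 3.58.1 on log2 FPKM, and leaving out each library. The sex comparison and the interactions had only DESeq2, no filter on low counts and leaving out each library. Alternatives for the number of genes called by the interactions, and levels per kilobase of the longest transcript, were added after seeing the data. The 7 genes and the lists were chosen with earlier results of these data known. Named genes are the 7, genes of each further list that passed the test plus at most 4 with the highest mean CPM, and, for each of the 7 with a mean of at least 1 CPM, the 3 most similar genes, except 1 gene of the further lists that is not reported here. Of the 36737 gene IDs, 36612 were in GENCODE release M21. The spinal cord genes, *Kcnj5*, *Pomc*, *Ipcef1*, *Gm10945* and *A830012C17Rik* were named for checks of the tissue, the filter, low levels and overlaps.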

Additional observations from a re-analysis of the deposited data

Results flagged for a closer look

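In each of the 21 combinations of gene and group, the highest and the lowest of the 6 mice were checked for standing apart from the rest (Dixon's test at its 95% critical value). Of these, 2 did, and chance gives about 1 in 20. *Oprk1* had 0.974 CPM in Sham F3, where the next lowest sham mouse had 3.18 CPM. Without this library the log2 fold change of *Oprk1* was −0.15 between Fracture and Sham and −0.47 between Fracture+PDX and Sham, and neither was called (adjusted p = 0.559 and 0.341, edgeR). *Pdyn* had 0.839 CPM in Fracture+PDX F3, from 56 reads, where the next highest mouse of the group had 0.337 CPM. Without this library its log2 fold change was −0.74 between Fracture+PDX and Fracture and −0.015 between Fracture+PDX and Sham, and neither was called.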

How the results depend on the processing

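None of the 7 genes was called under any of the alternatives, where DESeq2 gave no adjusted p to *Oprm1*, *Pdyn* and *Pnoc* between Fracture+PDX and Fracture or to *Pdyn* between the sexes. Of 140 alternative values per comparison, 135 kept their direction between Fracture and Sham, 131 between Fracture+PDX and Fracture, 130 between Fracture+PDX and Sham and 138 between the sexes. Between the sexes these came from 2 settings and 18 fits with 1 library left out, and between groups from 8 settings and 12 such fits. The lowest adjusted p was 0.140, that of *Oprd1* between Fracture and Sham without Fracture F1. The replicate block turned *Oprm1* to 0.078 between Fracture+PDX and Fracture and *Oprd1* to −0.00362 between Fracture+PDX and Sham. Limma on log2(FPKM + 0.1) turned the same values to 0.031 and −0.019, and log2(FPKM + 1) turned *Oprd1* to −0.012. The cause was not tested. With single libraries left out, values that turned ranged as follows on the log2 scale. Between Fracture and Sham these were *Penk* (−0.25 to 0.088), *Oprk1* (−0.15 to 0.14) and *Oprm1* (−0.35 to 0.015). Between Fracture+PDX and Fracture they were *Oprm1* (−0.15 to 0.23), *Pdyn* (−0.74 to 0.025), *Ackr3* (−0.090 to 0.16) and *Anpep* (−0.0089 to 0.20). Between Fracture+PDX and Sham they were *Oprd1* (−0.057 to 0.084), *Oprl1* (−0.0068 to 0.18), *Pnoc* (−0.0057 to 0.40) and *Pdyn* (−0.015 to 0.70), and between the sexes *Oprd1* (−0.11 to 0.011) and *Pnoc* (−0.0065 to 0.24).

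The number of genes called depended on the test. DESeq2 called 1511 genes between Fracture and Sham, 15 between Fracture+PDX and Fracture, 1620 between Fracture+PDX and Sham, 330 between the sexes, and 8 and 65 for the interactions of sex with PDX and with fracture. The replicate block gave 118 genes between Fracture and Sham, 0 between Fracture+PDX and Fracture and 486 between Fracture+PDX and Sham, and 3, 4 and 2 of 6 mice correlated best with their own number. The block also ended calls of further pathway genes (edgeR), between Fracture and Sham those of *Atf3* (adjusted p = 0.0609), *Anpep* (0.0823) and *Arrb1* (0.0849), and between Fracture+PDX and Sham those of *Pcsk2* (0.0569) and *Cacna1a* (0.0777). No replicate block could be used between the sexes, since numbers are shared within a sex only. Leaving out single libraries gave 213 to 710 genes between Fracture and Sham, 0 to 1 between Fracture+PDX and Fracture, 498 to 1008 between Fracture+PDX and Sham, 25 to 79 between the sexes, and 1 to 2 and 0 to 1 for the interactions of sex with PDX and with fracture. The ratio of *Oprl1* to *Oprm1* was 29.6 in FPKM and 13.7 in CPM, which is not scaled for length, and 10.7 in CPM per kilobase of the longest transcript, chosen after seeing the data. *Pdyn* rested on few reads per library, as given above.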
